A study of Mus musculus with 7 samples.

Results

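Both strands of the microRNA miR-375, mmu-miR-375-3p and mmu-miR-375-5p (below miR-375-3p and miR-375-5p), were followed through small RNA libraries of sorted embryonic mouse spinal cells. They are 2 of the 1908 mature miRNAs in each of the 2 tables, found by name, and were chosen by their E12.5 levels, at which miR-375-3p was highest in V3 interneurons. Those levels are therefore given as a description, with no test. At E10.5, 2 libraries held GFP-positive motoneurons and 2 held GFP-negative spinal cells of Hb9::gfp embryos. At E12.5, tdTomato-positive V3 interneurons of Sim1::cre;Rosa26::LSL::tdTomato embryos, tdTomato-positive V2a interneurons of Chx10::cre;Rosa26::LSL::tdTomato embryos and GFP-positive motoneurons of Hb9::gfp embryos gave 1 library each.

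In the Hb9 line the promoter of a motoneuron homeobox gene drives GFP, and the GFP-negative fraction is a mixture of every other dissociated cell. In the Cre lines a cell and its descendants stay labelled once the recombinase has acted, so the tdTomato fractions hold cells with a history of Sim1 or Chx10 expression. The labels do not say how many embryos were pooled, or whether replicates came from separate litters, so a p-value here reflects the variation among these libraries alone and may be technical in part.

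miR-375 was first described as an abundant miRNA of pancreatic islets, where it restrains insulin secretion, and it is also found in the pituitary and in other neuroendocrine cells. In human stem cell cultures it is expressed in spinal motoneuron progenitors and lowers the transcription factor PAX6 and the cell cycle protein CCND2. miRNAs are cut from a hairpin as a duplex of a 5p and a 3p strand, of which usually the guide is kept and the passenger is degraded, and for miR-375 the guide is the 3p strand. V3 interneurons arise from the most ventral neuronal progenitor domain, beside the floor plate, and V2a interneurons from a domain dorsal to that of motoneurons. Both interneuron classes are excitatory.

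The RefSeq table for GRCm38.p6 gave the Mir375 hairpin and the mature miR-375-5p. The hairpin is shown because both strands followed here are cut from it, with miR-375-5p in capitals, and the mature strand is shown with its seed (bases 2 to 8, which pair with targets) in capitals. All sequences are RNA, 5′ to 3′.
Mir375 hairpin: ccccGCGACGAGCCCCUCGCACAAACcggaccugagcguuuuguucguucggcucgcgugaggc
miR-375-5p: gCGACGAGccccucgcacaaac

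The hairpin spans chr1:74900658-74900721 on the minus strand and the mature miR-375-5p chr1:74900696-74900717. In GENCODE M21, on the same build, no other gene overlaps the hairpin. It lies 7515 bp from Cryba2, a lens crystallin gene, 1350 bp from Cfap65, a gene of cilia and flagella, and 15239 bp from Fev, which encodes a transcription factor of serotonin neurons. No other hairpin of the RefSeq table lies within 500 kb, and the nearest, Mir26b, is 506 kb away. G and C make up 67.2% of the hairpin, against a median of 51.7% over the 1005 hairpins of the table, and 54 hairpins, Mir375 included, have a share this high. None of the other mature miRNAs in the table has the seed of miR-375-5p.

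E10.5 depths ran from 493255 to 802746 reads and E12.5 depths from about 3603500 to 4605324. The E10.5 values are RPM, scaled so that each library sums to 1000000, and the E12.5 values are TPM, which are also scaled by length. Across the 492 miRNAs tested at E10.5, the replicates had a Pearson correlation of 0.975 in motoneurons and 0.984 in GFP-negative cells, against 0.844 to 0.878 between groups. miR-218-5p, the motoneuron miRNA of the series title, stood at 177885 and 200305 RPM in E10.5 motoneurons and at 6623 and 7315 RPM in GFP-negative cells.

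miR-375-3p was lower in motoneurons than in GFP-negative cells at E10.5. The motoneuron libraries held 14.95 and 8.11 RPM, against 66.9 and 70.6 RPM in the GFP-negative libraries. These values rest on 12 and 4 reads in motoneurons and 52 and 38 reads in GFP-negative cells, and both motoneuron libraries lay below both GFP-negative ones. The 95% Poisson intervals ran from 7.73 to 26.1 RPM and from 2.21 to 20.8 RPM in motoneurons, and from 49.9 to 87.7 RPM and from 49.9 to 96.8 RPM in GFP-negative cells. These intervals cover counting error only. Intervals of different groups did not overlap.

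**Figure D1:**
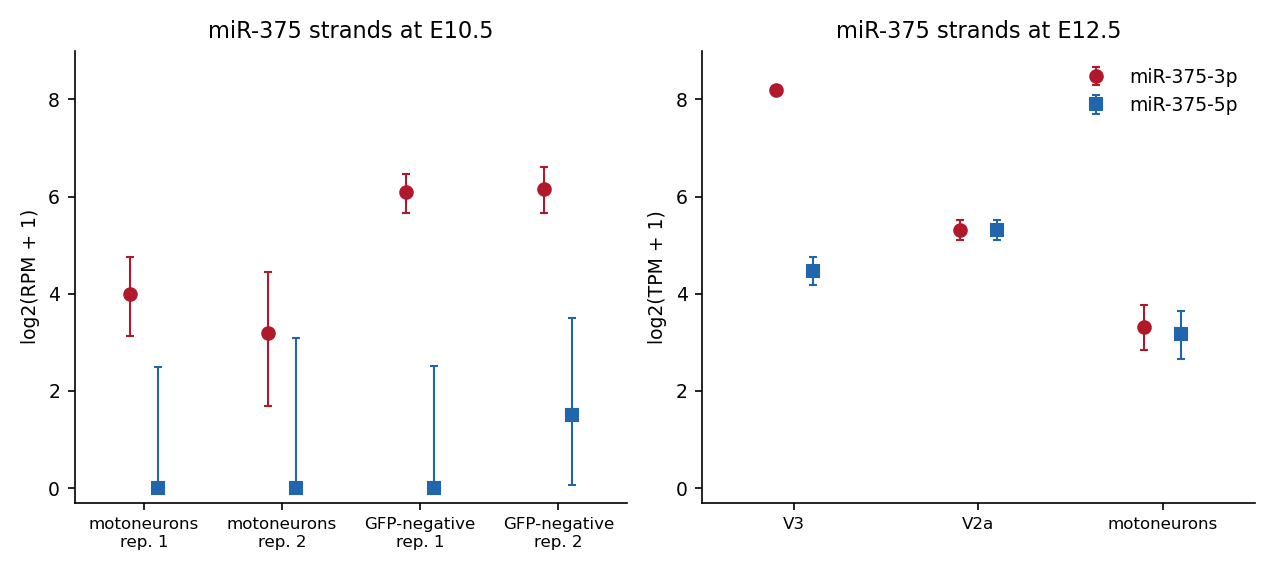
Levels of miR-375-3p (circles) and miR-375-5p (squares) in each library, as log2(RPM + 1) at E10.5 on the left and log2(TPM + 1) at E12.5 on the right. Bars are 95% Poisson intervals on the reads. The tables were scaled separately. At E10.5 the 3p strand is lower in both motoneuron libraries (14.95 and 8.11 RPM) than in both GFP-negative ones (66.9 and 70.6 RPM), and at E12.5 it steps down over V3, V2a and motoneurons, while the 5p strand is highest in V2a.

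On average miR-375-3p was at 11.5 ± 4.84 RPM in motoneurons and 68.7 ± 2.60 RPM in GFP-negative cells (SD, n = 2 each). The log2 fold change on the log2(RPM + 1) scale was -2.53 (SE 0.42, limma adjusted p = 0.00370). The background of this comparison was wide, with 30.7% of the 492 tested miRNAs called lower in motoneurons and 11.6% higher. The median log2 fold change was -0.34, and miR-375-3p was the 35th lowest. With totals that left out the 5 most abundant miRNAs, the median was 0.03, 105 miRNAs were higher and 116 lower, in place of 57 and 151, and miR-375-3p had -2.17 (limma adjusted p = 0.00404).

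miR-375-3p passed the abundance filter (15.2 RPM in at least 2 libraries) only through the GFP-negative libraries. With no filter but the removal of rows at 0 throughout, its fold change was the same and its limma adjusted p was 0.00831. Without motoneuron replicate 1 the log2 fold change was -2.94 and without motoneuron replicate 2 it was -2.13, both called. Without either GFP-negative library it missed the filter, and with the same 492 miRNAs kept it had -2.57 without replicate 1 (limma adjusted p = 0.0643) and -2.49 without replicate 2 (limma adjusted p = 0.0753), so the call needed both GFP-negative libraries. An exact permutation test of 2 libraries against 2 cannot give a p below 0.333.

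**Figure D2:**
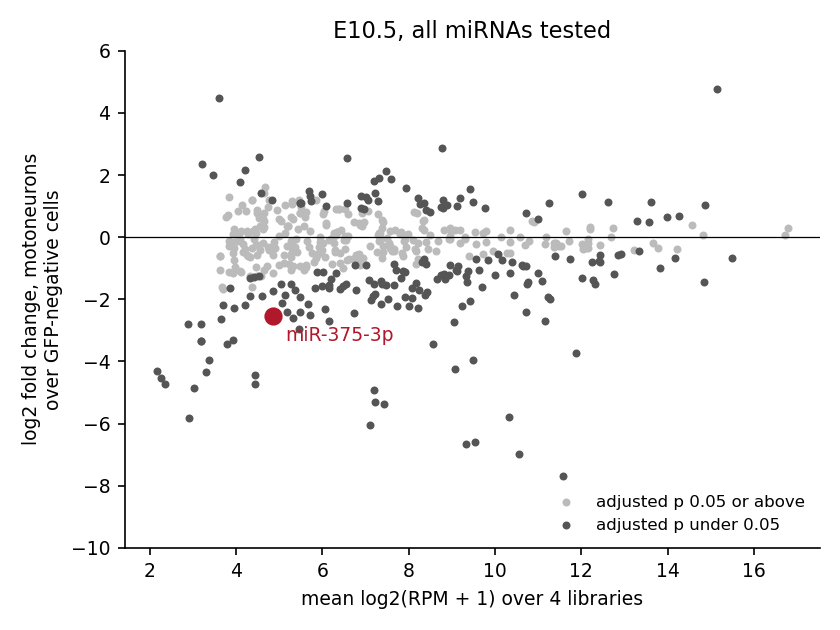
Log2 fold change of motoneurons over GFP-negative cells against the mean log2(RPM + 1) over 4 libraries, for the 492 miRNAs tested at E10.5. Dark points have a limma adjusted p under 0.05, and the large point is miR-375-3p, at -2.53.

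miR-375-5p was near the detection limit at E10.5. It was at 0 RPM in both motoneuron libraries, and at 0 and 1.86 RPM in the GFP-negative libraries, where the last value is a single read. The one-sided limit that 0 reads leave is 3 reads, or 3.74 and 6.08 RPM in the motoneuron libraries and 3.86 RPM in the GFP-negative library at 0. The upper ends of the two-sided 95% Poisson intervals are 4.595, 7.48 and 4.74 RPM for the same libraries. No difference was detectable at this depth. The strand did not pass the filter, so 1 of the 2 strands was tested.

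The GFP-negative fraction also held RNA of other cell types. The 8 mesenchymal miRNAs of the miR-199, miR-214, miR-143 and miR-145a hairpins summed to 1570 and 424 RPM in the motoneuron libraries, against 81346 and 94145 RPM in the GFP-negative ones. All 8 were lower in motoneurons (limma adjusted p of 0.000953 or less), with a median log2 fold change of -6.32, and none was at 0 in any library. Of all 492 miRNAs tested, 30.7% were called lower in motoneurons and 11.6% higher. miR-145a-5p was below the filter level of 15.2 RPM in both motoneuron libraries (6.23 and 2.03 RPM). The miR-199 rows each share reads with another row. The 4 muscle miRNAs summed to 355 and 130 RPM in motoneurons and 4192 and 3796 RPM in GFP-negative cells, with 3 of 3 tested lower. Of those 3, miR-133b-3p was below the filter level in both motoneuron libraries, at 2.91 and 1.01 RPM. The 7 epithelial miRNAs summed to 216 and 363 RPM in motoneurons and 495 and 724 RPM in GFP-negative cells. Of these, 2 of 5 tested were lower, beside 30.7% of all miRNAs tested. miR-141-3p, also of the epithelial list, stood at 0.05 and 0 RPM in the GFP-negative libraries. The part of these cells in the difference of miR-375-3p was not tested, and fewer cells of a type cannot be told apart from less RNA per cell in such bulk libraries. For blood the sums were 111 and 72.0 RPM in motoneurons and 97.7 and 108 RPM in GFP-negative cells. Most of each sum was miR-486-5p, a row that shares reads and the 1 blood miRNA tested, which was not called. It held 99.03 and 71.97 RPM in motoneurons and 64.31 and 89.58 RPM in GFP-negative cells. miR-144-3p and miR-223-3p were at 0 in both motoneuron libraries, against 5.14 and 1.86 RPM and 5.14 and 5.57 RPM in GFP-negative cells. miR-451a held 12.46 and 0 RPM in motoneurons and 23.15 and 11.14 RPM in GFP-negative cells. These other members were not tested, so the sums do not measure blood RNA as such. The endothelial miRNAs summed to 508 and 295 RPM in motoneurons and 977 and 676 RPM in GFP-negative cells, with 1 of 1 lower. The oligodendrocyte list ran the other way, at 19803 and 17712 RPM in motoneurons and 9223 and 7948 RPM in GFP-negative cells, with 2 of 2 higher. Nearly all of this sum was 1 row that shares reads, miR-219a-2-3p, at 19596 and 17569 RPM in motoneurons. Both rows called were miR-219a strands. The other member, miR-338-3p, was at 0 in both motoneuron libraries and at 0 and 3.71 RPM in GFP-negative cells, so the sum does not measure oligodendrocyte RNA as such.

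Among 14 other miRNAs known from pancreatic islets and neuroendocrine cells, 11 were tested at E10.5, and 4 were higher and 4 lower in motoneurons. Over all 492 miRNAs tested, 11.6% were higher and 30.7% lower. The median log2 fold change of the 11 was -1.06, against -0.34 over all miRNAs tested. Those that fell with miR-375-3p included miR-183-5p and miR-182-5p, which come from 1 cluster that is abundant in sensory cells. miR-183-5p held 1116 and 1381 RPM in motoneurons and 4864 and 4974 RPM in GFP-negative cells (log2 fold change -1.99, limma adjusted p = 0.000436). miR-182-5p had a log2 fold change of -2.41 and miR-96-5p, of the same cluster, -1.71. These 3 miRNAs also formed the sensory neuron list, which summed to 1971 and 2325 RPM in motoneurons and 9171 and 9535 RPM in GFP-negative cells, with 3 of 3 lower. Those that rose included miR-7a-5p, a miRNA of islets and of neurons, with a log2 fold change of 0.49, and the neuronal miR-124-3p, with 2.12. miR-7a-5p shares reads with miR-7b-5p, so the split between them is uncertain. miR-9-5p, the most abundant of the list, had a log2 fold change of 0.38, which did not pass (limma adjusted p = 0.124).

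Of 7 miRNAs that earlier work links to motoneurons, 3 were higher and 3 lower, with a median log2 fold change of 0.38. Over all miRNAs tested, 11.6% were higher and 30.7% lower, with a median of -0.34. miR-218-5p had 4.76 and miR-196b-5p, which represses Hox transcripts, had 1.003, while miR-27b-3p had -1.93. The miR-196b-5p and miR-27b-3p rows each share reads with their paralog. The 8 pan-neuronal miRNAs gave 2 higher of 6 tested and none lower, miR-124-3p and miR-153-3p (log2 fold change 1.41). miR-128-3p, the most abundant of them, had 0.01.

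At E12.5 the order of miR-375-3p was V3, then V2a, then motoneurons. The V3 library held 291 TPM, the V2a library 38.9 TPM and the motoneuron library 9.01 TPM. These correspond to 1210 reads in V3, 175 in V2a and 32 in motoneurons at a length of 22 nt. The 95% Poisson intervals were 275 to 308 TPM in V3, 33.4 to 45.1 TPM in V2a and 6.16 to 12.7 TPM in motoneurons, so no neighbours in this order overlapped in counting error, the only error that single libraries give. The level was 7.47 times as high in V3 as in V2a (95% counting interval 6.37 to 8.81) and 32.3 times as high in V3 as in motoneurons (22.8 to 47.4). V2a in turn was 4.32 times as high as motoneurons (2.95 to 6.51).

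Ranked by level within each library, miR-375-3p was number 104 in V3, 268 in V2a and 446 in motoneurons at E12.5. At E10.5 it was number 446 and 512 in the motoneuron libraries and 311 and 313 in the GFP-negative ones. In both tables its rank was lowest in motoneurons.

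Of 523 miRNAs that reached 10 TPM in at least 1 E12.5 library, 5 (0.956%) lay at least 4-fold above both other populations in V3, on the TPM + 1 scale. miR-375-3p had the second highest margin over the nearer of the other 2 populations, at 2.87 on the log2 scale, after miR-483-5p at 3.94. miR-483-5p, from the imprinted Igf2 locus, stood at 41.6 TPM in V3, 1.78 TPM in V2a and 0.56 TPM in motoneurons. The other 3 were miR-128-1-5p, let-7b-5p and miR-1966-5p, with margins of 2.75, 2.72 and 2.38. let-7b-5p shares reads with other let-7 rows, so its value is uncertain. Against each population alone, 9 miRNAs (1.72%) lay at least 4-fold above V2a in V3 and 18 (3.44%) at least 4-fold above motoneurons, and 11 (2.1%) lay at least 4-fold below both. V3 was the highest of the 3 populations for 83 miRNAs (15.9%), and 50 (9.56%) shared the order of V3 over V2a over motoneurons.

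**Figure D3:**
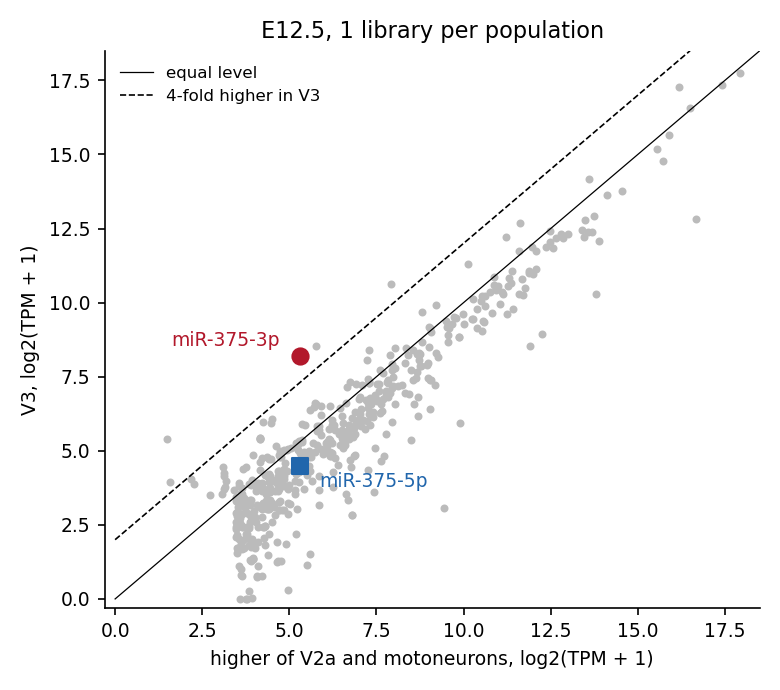
Level in V3 against the higher of V2a and motoneurons, both as log2(TPM + 1), for the 523 miRNAs considered at E12.5. The solid line marks equal levels and the dashed line a 4-fold higher level in V3. The circle is miR-375-3p (291 TPM in V3, 38.9 in V2a), above the dashed line, and the square is miR-375-5p (21.2 TPM in V3, 38.9 in V2a), below the solid line.

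The 5p strand followed another order at E12.5. miR-375-5p stood at 21.2 TPM in V3, 38.9 TPM in V2a and 7.99 TPM in motoneurons. The 95% Poisson intervals were 17.0 to 26.1 TPM in V3, 33.4 to 45.1 TPM in V2a and 5.32 to 11.5 TPM in motoneurons. It was highest in V2a, and its V3 level was 0.545 times the V2a level (counting interval 0.417 to 0.708) and 2.65 times the motoneuron level (1.72 to 4.22). At 22 nt these values correspond to 88.2 reads in V3, 175.0 in V2a and 28.4 in motoneurons. The V3 and motoneuron values are not whole reads at that length, so the 5p counts there are approximate.

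The share of each strand therefore differed between populations. In V3 the 3p strand made up 93.2% of miR-375 reads (1210 of 1298, exact binomial 95% interval 91.7% to 94.5%). In V2a it made up 50% (175 of 350, 44.6% to 55.4%), and in motoneurons 53.3% (32 of 60, 39.997% to 66.3%). At E10.5 all 12 and 4 reads of the motoneuron libraries were 3p, as were 52 of 52 and 38 of 39 reads of the GFP-negative libraries. Over the 4 libraries that is 106 of 107 reads, or 99.1% (94.9% to 99.98%). That interval pools the reads of both groups, most of them from GFP-negative cells. In the motoneuron libraries alone the lower ends of the 95% intervals were 73.5% (12 reads) and 39.8% (4 reads). The 2 tables were made separately, so stage and table cannot be told apart in setting these shares side by side.

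Among 74 hairpins with at least 20 reads of each strand in every E12.5 library, miR-375 had the largest excess of 3p over 5p in V3 relative to V2a (a difference of 3.78 on the log2 scale) and relative to motoneurons (3.61). The medians over the 74 pairs were -0.06 and -0.15, and 2 pairs (2.70%) passed 4-fold in the first comparison and 3 (4.05%) in the second. The other pairs past it were miR-410 in both comparisons (2.06 over V2a and 2.27 over motoneurons) and miR-486 in the second (3.33). These differences contain the V3 levels that led to the choice of miR-375, so they are a description.

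**Figure D4:**
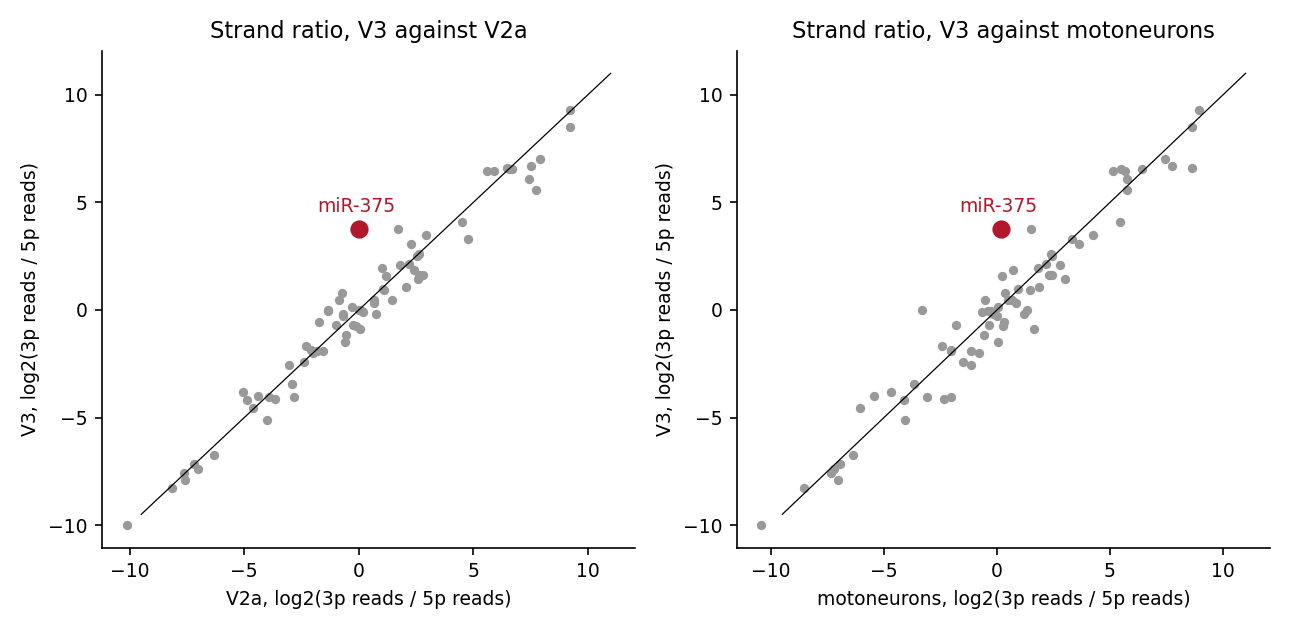
Log2 ratio of 3p to 5p reads in V3 against the same ratio in V2a (left) and in motoneurons (right), for 74 hairpins with at least 20 reads of each strand in every E12.5 library. The line marks equal ratios. miR-375 is the red point, 3.78 above the line on the left and 3.61 on the right.

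The 3p and 5p values of miR-375 in the V2a library were identical as deposited. Of the 51 hairpins with at least 100 reads of both strands in that library, miR-375 was the only pair with equal values. Over all pairs with both strands detected, 2 of 446 were equal in V2a, 4 of 360 in V3 and 2 of 425 in motoneurons. Whether the equal values are chance or a fault of the table was not tested, and the order of miR-375-5p, the strand share in V2a and the strand difference between V3 and V2a rest on the V2a value. The comparison of V3 with motoneurons does not use it. Each miR-375 strand is alone in its group of shared reads in the E10.5 table.

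At E12.5, 2 of the 7 lists of other cell types had sums in the order of miR-375-3p, the mesenchymal and the sensory neuron list. The epithelial miRNAs summed to 120 TPM in V3, 223 TPM in V2a and 60.5 TPM in motoneurons, and miR-203-3p made up most of it, at 116 TPM in V3, 216 TPM in V2a and 41.1 TPM in motoneurons. In V3, miR-200b-3p and miR-200c-3p were at 0, miR-200a-3p, miR-429-3p and miR-205-5p were under 1 TPM, and miR-141-3p was at 3.05 TPM, against 2.34 TPM in V2a and 0.25 TPM in motoneurons. The mesenchymal sum was 307 TPM in V3, 248 TPM in V2a and 198 TPM in motoneurons, over a narrower range than miR-375-3p. Of its 5 members considered, 4 were highest in V3, where the background is 15.9%. Among the 4, miR-199a-3p and miR-199b-3p had identical values (41.1 TPM in V3, 13.5 TPM in V2a and 17.0 TPM in motoneurons), so they are not separate measurements. miR-214-3p was lowest in V3, at 63.3 TPM in V3, 120 TPM in V2a and 79.3 TPM in motoneurons. The part of the mesenchymal sum in the V3 level of miR-375-3p was not tested. The sensory neuron sum was 193 TPM in V3, 181 TPM in V2a and 108 TPM in motoneurons. Most of it was miR-183-5p, at 169 TPM in V3, 151 TPM in V2a and 88.6 TPM in motoneurons. miR-96-5p followed the same order, at 7.13 TPM in V3, 3.62 TPM in V2a and 1.62 TPM in motoneurons. miR-182-5p did not, at 16.8 TPM in V3, 25.6 TPM in V2a and 17.6 TPM in motoneurons. The other 4 sums were lowest in V3. The muscle sum was 63.0 TPM in V3, 221 TPM in V2a and 126 TPM in motoneurons. The blood sum was 8.57 TPM in V3, 35.0 TPM in V2a and 112 TPM in motoneurons. Most of it was miR-486-5p, a row that shares reads, at 6.17 TPM in V3, 33.9 TPM in V2a and 110 TPM in motoneurons. The other blood members did not follow this order. miR-451a was at 0.24 TPM in V3 and at 0 in V2a and motoneurons. miR-223-3p was at 2.16 TPM in V3, 1.11 TPM in V2a and 2.25 TPM in motoneurons, and miR-144-3p was at 0, 0 and 0.31 TPM. The endothelial sum was 174 TPM in V3, 405 TPM in V2a and 177 TPM in motoneurons, and the oligodendrocyte sum was 3725 TPM in V3, 6091 TPM in V2a and 5540 TPM in motoneurons. Nearly all of the oligodendrocyte sum was again miR-219a-2-3p, at 3708 TPM in V3, 6080 TPM in V2a and 5519 TPM in motoneurons.

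The labels of the sorts could be checked in part. miR-218-5p stood at 7282 TPM in V3, 7558 TPM in V2a and 104198 TPM in motoneurons. The pan-neuronal miRNAs summed to 5592 TPM in V3, 11292 TPM in V2a and 13956 TPM in motoneurons. None of the 6 considered was highest in V3, where the background is 15.9%. Most of the pan-neuronal sum was miR-128-3p, at 5328 TPM in V3, 11007 TPM in V2a and 13085 TPM in motoneurons. miR-124-3p, the classical neuronal miRNA, stood at 57.9 TPM in V3, 147 TPM in V2a and 157 TPM in motoneurons. miR-137-3p was also lowest in V3, at 35.9 TPM against 46.6 and 86.1 TPM. The other members considered were lowest in V2a and highest in motoneurons. In V3, V2a and motoneurons, miR-129-5p, a row that shares reads, held 147, 76.9 and 575 TPM. In the same order, miR-138-5p held 11.7, 9.79 and 34.7 TPM, and miR-132-3p 3.13, 0.47 and 12.4 TPM. The tables hold no messenger RNA, so Sim1 and Chx10 were not read.

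Of the islet and neuroendocrine list, 6 of 14 miRNAs were considered at E12.5, and 2 were highest in V3, where the background is 15.9%. miR-9-5p, a miRNA of neural progenitors and neurons, stood at 160334 TPM in V3, 73931 TPM in V2a and 73278 TPM in motoneurons. miR-183-5p stood at 169 TPM in V3, 151 TPM in V2a and 88.6 TPM in motoneurons. miR-7a-5p ran the other way, at 653 TPM in V3, 1550 TPM in V2a and 1183 TPM in motoneurons, and so did miR-7b-5p, at 39.96 TPM in V3, 153 TPM in V2a and 357 TPM in motoneurons. miR-182-5p, of the same cluster as miR-183-5p, was also lowest in V3, at 16.8 TPM against 25.6 TPM in V2a and 17.6 TPM in motoneurons. No member of the list lay 4-fold above both others in V3, where the background is 0.956%. Of the 7 miRNAs that earlier work links to motoneurons, 3 were highest in V3, where the background is 15.9%. They were miR-9-5p, also in the islet list, and 2 rows that share reads. Those 2 were miR-27a-3p (27.0 TPM in V3, 25.9 TPM in V2a and 22.8 TPM in motoneurons) and miR-196b-5p (297, 35.5 and 238 TPM in the same order). By contrast, miR-27b-3p stood at 453 TPM in V3, 728 TPM in V2a and 933 TPM in motoneurons. miR-196a-5p, the more abundant paralog of miR-196b-5p, was highest in motoneurons, at 5086 TPM in V3, 3113 TPM in V2a and 8165 TPM in motoneurons.

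The miRNAs whose pattern over the 7 libraries was most like that of miR-375-3p were found by Pearson correlation of log2(value + 1), centred within each table, among 361 other miRNAs that passed both filters. They were miR-301a-3p (r = 0.96), miR-483-5p (r = 0.94), miR-6240 (r = 0.91), let-7d-3p (r = 0.89) and miR-92a-1-5p (r = 0.89). These correlations share the libraries, their depth and their scaling, and 15 of the 361 reached 0.8. They also contain the E12.5 levels that led to the choice of miR-375, so they are a description. The RefSeq sequences of the nearest pair are shown with the seed in capitals, to set them beside miR-375-5p.
miR-301a-3p: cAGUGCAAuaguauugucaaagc
miR-483-5p: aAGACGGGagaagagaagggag

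miR-301a-3p lies at chr11:87113054-87113076 and miR-483-5p at chr7:142654968-142654989, so neither neighbours Mir375. The seeds of miR-301a-3p, miR-483-5p and miR-375-5p all differ. The patterns were compared with that of the guide strand, for which RefSeq gave no mature sequence, so the guide seed was not compared. The likeness was one of direction more than of size. miR-301a-3p held 56.1 and 40.6 RPM in motoneurons and 77.2 and 65.0 RPM in GFP-negative cells at E10.5, and 26.0 TPM in V3, 17.5 TPM in V2a and 11.6 TPM in motoneurons at E12.5. miR-483-5p had a wider range at E10.5, with 44.9 and 14.2 RPM in motoneurons and 902 and 715 RPM in GFP-negative cells. At E10.5 the log2 fold change of miR-301a-3p was -0.56, which did not pass (limma adjusted p = 0.225). That of miR-483-5p was -4.93 (limma adjusted p = 0.000557).

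**Figure D5:**
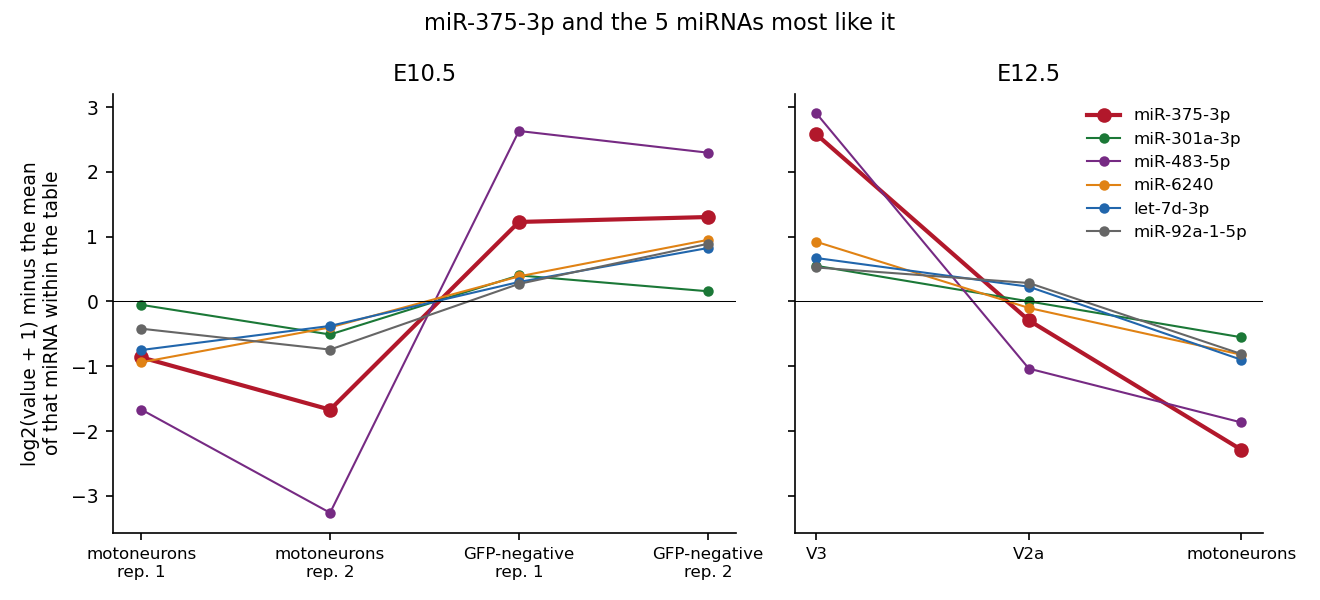
Log2(value + 1) minus the mean of that miRNA within its table, for miR-375-3p (thick line) and the 5 miRNAs with the highest correlation with it over 7 libraries. Lines only join the points of one miRNA. All 6 are lower in both motoneuron libraries than in both GFP-negative ones at E10.5 and are highest in V3 and lowest in motoneurons at E12.5. The 5 were picked by correlation over these same libraries, so the shared order follows in part from the choice.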

How the data were processed

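Small RNA was sequenced from FACS-sorted spinal cells after papain dissociation, with a miRvana RNA kit and a NEBNext small RNA kit, per the labels' protocols. The submitters' processing notes name Bowtie2. For the counting step, the genome build and the annotation, the program or version is not given in the sources used here. Deposited E10.5 values are RPM, since each library sums to 1000000. Reads per library came from the RPM of 1 read, with which 97.5% to 100% of low values in unshared rows were within 0.05 of whole reads (89.4% to 91.7% over all rows). The deposited E12.5 values carry no unit and were read as FPKM from its steps. It was rescaled to TPM, and reads assume 22 nt. No column of per-sample values was left out, and the authors' means and ratios were not used.

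For E10.5, log2(RPM + 1) of motoneurons and GFP-negative cells was fitted by limma 3.58.1 (R 4.3.3), moderated with an intensity trend. Tests were two-sided, and p-values were adjusted by Benjamini-Hochberg over every miRNA with 15.2 RPM (10 reads in a library of median size) or more in 2 or more libraries. A fold change on this scale understates the change of low miRNAs. E12.5 libraries have no replicates. The members and the marker lists were chosen with earlier results of these data known. The named miRNAs are both strands, members of the lists with the highest mean level (up to 4 a list and table), and the 5 most alike. miR-96-5p, miR-153-3p, miR-124-3p, miR-7b-5p, miR-141-3p, miR-200a-3p, miR-200b-3p, miR-200c-3p, miR-429-3p, miR-205-5p and the miRNAs past 4-fold were named after their values were seen where the rule does not cover them. So were miR-27a-3p, miR-196b-5p, miR-145a-5p, miR-199a-3p, miR-199b-3p, miR-138-5p and miR-132-3p. The alternatives tried were another pseudocount, no filter, 2 other scalings, a replicate block and each library left out.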

Additional observations from a re-analysis of the deposited data

How the results depend on the processing

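miR-375-3p stayed lower in E10.5 motoneurons in every fit that held it, with log2 fold changes from -2.94 to -2.13 when a library was left out. Its call was lost without either GFP-negative replicate, with the 492 miRNAs kept (chosen after seeing the data): -2.57 and -2.49. Counts of 4 to 52 reads per library limit its precision. With the replicate block it kept -2.53 (limma adjusted p = 0.00603), and 67 miRNAs were higher and 162 lower. The replicate numbers do not pair the libraries by any label (same-numbered libraries correlated by 0.26 in their deviations). With a library left out and the filter applied again, 27 to 48 miRNAs were higher and 106 to 125 lower. With the 492 miRNAs kept, 30 were higher without motoneuron replicate 1 and 30 without replicate 2, 15 were higher and 63 lower without GFP-negative replicate 1, and 21 were higher and 58 lower without replicate 2. The number higher was 34 with no filter and 105 with totals without the 5 most abundant miRNAs. The planned count-based test was not run, because too few RPM values were whole reads.

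At E12.5, with a pseudocount of 10, the log2 ratio of miR-375-3p was 2.62 for V3 over V2a and 3.98 for V3 over motoneurons, and 0 miRNAs lay 4-fold below both others in V3. With the median of ratios the V3 over V2a log2 ratio was 3.36 for miR-375-3p and -0.37 for miR-375-5p, and 6 lay below. With totals without the 5 most abundant miRNAs, V3 over motoneurons was 5.65 for miR-375-3p, and 8 miRNAs lay 4-fold above both others. Values as deposited put 19 below, and no filter put 12 above and 23 below. The cause was not tested. No ratio of either strand changed its sign in these settings.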

Other observations

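miR-185-5p had the most opposite pattern to miR-375-3p over the 7 libraries (r = -0.99), followed by miR-139-3p (r = -0.95), both singled out after their values were seen. miR-185-5p held 2072 and 2319 RPM in E10.5 motoneurons and 1199 and 1357 RPM in GFP-negative cells, and at E12.5 it stood at 122 TPM in V3, 242 TPM in V2a and 317 TPM in motoneurons. miR-139-3p held 32.4 and 28.4 RPM in E10.5 motoneurons and 9 and 7.43 RPM in GFP-negative cells, and 1.44 TPM in V3, 4.23 TPM in V2a and 26.2 TPM in motoneurons at E12.5.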
